A study of Mus musculus with 18 samples.

Results

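Ribosomal protein genes of mouse peritoneal macrophages were followed across 6 groups of sorted cells, in a cytosolic set and a mitochondrial set. Members were chosen by gene symbol alone. Symbols that begin with Rpl or Rps and a number, plus Rplp0, Rplp1, Rplp2 and Rpsa, gave 87 cytosolic members, of which 52 belong to the large and 35 to the small subunit. Symbols that begin with Mrpl or Mrps and a number gave 78 mitochondrial members, 49 large and 29 small. Processed pseudogenes with a -ps suffix and the ribosomal S6 kinases were left out. The 165 members are part of 23511 genes with a row of counts. Of the cytosolic members, 5 (Rpl32l, Rpl6l, Rps3a2, Rps3a3 and Rps4l) are annotated as pseudogenes rather than as protein-coding genes.

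The cytosolic ribosome translates messengers of the nuclear genome, and its proteins are made in near-equal amounts for assembly in the nucleolus. The mitochondrial ribosome is a separate machine in the matrix that translates the few messengers of the mitochondrial genome, all of them for subunits of the respiratory chain and the ATP synthase. Its proteins are nevertheless encoded in the nucleus, translated in the cytosol and imported. Messengers of cytosolic ribosomal proteins classically start with a run of pyrimidines, through which mTOR signalling controls their translation, whereas genes of mitochondrial ribosomal proteins often carry sites for factors such as GABP, NRF1 and YY1.

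Bulk RNA sequencing covered macrophages from the peritoneal cavity, sorted as Tim-4low or Tim-4high by surface Tim-4, a receptor for phosphatidylserine found on resident macrophages of body cavities. Each population was taken from 3 conditions, with 3 libraries per group and 18 in all. Mice of the first condition had no tumor and no treatment. Mice of the second carried MC38-LG cells, from the MC38 colon carcinoma line, in the peritoneal cavity and had an isotype control antibody, while those of the third carried the same tumor and received an antibody against Tim-4 7 days after tumor challenge. Cells of tumor-bearing mice were harvested 10 days after challenge, and those of mice without a tumor on the same day. The labels give no strain, age or allele, and call the libraries triplicates. Nothing there says whether the replicates were different mice, and the p-values therefore cover the spread among these libraries only, which may be technical. No group isolates the isotype antibody from the tumor, so the tumor comparison covers both.

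Libraries held 24530070 to 34110392 estimated counts. All 8 macrophage markers looked at, such as Csf1r and Cd68, were detected in every group. Their sums in CPM (counts scaled to a common library total) were higher without a tumor than with one. Without a tumor, Tim-4low spanned 26400 to 29300 CPM and Tim-4high 36400 to 45100 CPM. The isotype ranges were 17400 to 18600 and 21400 to 22600 CPM, in the same order. Those with anti-Tim-4 were 17500 to 20600 and 20000 to 20900 CPM. The part of this difference in the ribosomal protein results was not tested. In no tumor Tim-4low library 1, Timd4, the gene of Tim-4 itself, stood at 109 CPM, against 9.52 and 9.13 CPM in the other no tumor Tim-4low libraries, and in isotype Tim-4low library 3 at 75.4 CPM, against 14.5 and 11.0 CPM in the other isotype Tim-4low libraries. Library 1 also had the highest B cell marker sums of each no tumor group (816 CPM for Tim-4low and 256 CPM for Tim-4high), and library 3 the highest T and NK cell marker sums of each isotype group (159 CPM for Tim-4low and 153 CPM for Tim-4high). Member counts of the tumor comparison and of the comparisons between populations in these conditions are given with and without both libraries of the number concerned, and list counts where leaving them out moved a list's total of calls by more than 1.5 times. In bulk samples, fewer cells of a type and less RNA per cell cannot be told apart.

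The sequences around the annotated starts of 7 members are shown as examples of the pyrimidine start and of the motif letters that were counted in all members. Each runs from 150 bases before the start to 20 bases after it, as RefSeq annotates it on build GRCm38.p6. Rps6, the small-subunit protein phosphorylated by S6 kinases, lies at chr4:86857348-86857517 on the minus strand, Rps27 at chr3:90213629-90213798 on the minus strand and Rpl27a at chr7:109519045-109519214 on the plus strand. Capitals in these cytosolic members mark the run of C and T that begins at the start, and in Rps6 also CCGGAAG and in Rps27 also AAGATGGC.
Rps6: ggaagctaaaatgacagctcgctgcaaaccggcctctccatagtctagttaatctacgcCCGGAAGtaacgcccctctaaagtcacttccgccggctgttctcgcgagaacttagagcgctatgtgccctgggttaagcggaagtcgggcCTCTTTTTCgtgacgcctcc
Rps27: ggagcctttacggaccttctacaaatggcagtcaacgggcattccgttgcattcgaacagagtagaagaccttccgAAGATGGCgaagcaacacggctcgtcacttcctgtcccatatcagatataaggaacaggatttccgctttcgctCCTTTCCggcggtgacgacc
Rpl27a: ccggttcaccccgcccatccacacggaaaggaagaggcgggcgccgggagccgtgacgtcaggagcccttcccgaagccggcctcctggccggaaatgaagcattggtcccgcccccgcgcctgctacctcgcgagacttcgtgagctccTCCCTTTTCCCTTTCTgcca
Of the mitochondrial members, Mrpl51 lies at chr6:125192050-125192219 on the plus strand, Mrps16 at chr14:20393471-20393640 on the minus strand, Mrps12 at chr7:28741802-28741971 on the minus strand and Mrpl33 at chr5:31613801-31613970 on the plus strand. Capitals mark CCGGAAG, the core letters of sites for GABP and other ETS factors, read as CTTCCGG where it lies on the other strand, and in Mrpl33 also GCGCATGC, the core of NRF1 sites.
Mrpl51: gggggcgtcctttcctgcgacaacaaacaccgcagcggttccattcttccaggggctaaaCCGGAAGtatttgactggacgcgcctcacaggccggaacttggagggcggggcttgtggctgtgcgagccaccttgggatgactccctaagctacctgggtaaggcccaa
Mrps16: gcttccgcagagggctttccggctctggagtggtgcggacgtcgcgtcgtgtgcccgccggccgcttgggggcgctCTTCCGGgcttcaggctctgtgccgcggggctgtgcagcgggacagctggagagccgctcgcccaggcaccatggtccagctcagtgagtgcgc
Mrps12: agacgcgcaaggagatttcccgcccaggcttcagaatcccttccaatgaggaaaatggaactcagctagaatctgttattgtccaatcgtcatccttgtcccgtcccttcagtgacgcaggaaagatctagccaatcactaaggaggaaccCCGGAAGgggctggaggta
Mrpl33: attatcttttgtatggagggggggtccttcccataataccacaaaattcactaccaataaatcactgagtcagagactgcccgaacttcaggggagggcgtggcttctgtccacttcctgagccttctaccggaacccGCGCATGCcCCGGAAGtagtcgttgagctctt
In these windows Rps6 begins with 9, Rps27 with 7 and Rpl27a with 16 pyrimidines in a row, whereas Mrpl51, Mrps16 and Mrpl33 begin with none and Mrps12 with 3.

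RefSeq windows from 250 bases before to 50 after the start were matched for 63 cytosolic and 69 mitochondrial members, of 27025 gene symbols in all. A C or T at the start followed by at least 4 more stood in 16 cytosolic members (25.4%), in 1 mitochondrial member (1.45%) and in 4.36% of all symbols. Only the first listed start of each symbol was read, and only from its annotated base. A run that begins a base or more away was not counted, so members without a match may still have a pyrimidine start. CCGGAAG, on either strand, was found in 25 cytosolic (39.7%) and 25 mitochondrial members (36.2%), against 9.12% of all symbols. GCGCATGC was present in 3.17% of cytosolic and 11.6% of mitochondrial members and in 2.8% of all symbols. AAGATGGC, the core of YY1 sites, was present in 7.94%, 17.4% and 2.88% of the same sets. These matches, none of which overlapped another, describe letters and are not evidence of binding.

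Cytosolic messengers were the more abundant set in every library. They took 1.37% to 2.05% of all counts, against 0.134% to 0.185% for mitochondrial members. In TPM, a level that is corrected for transcript length, the median level over the 18 libraries was 311 TPM for cytosolic members (quartiles 89.0 and 718 TPM) and 33.3 TPM for mitochondrial members (quartiles 20.2 and 49.1 TPM). Rpl41, Rplp0 and Rps9 had the highest TPM of the cytosolic set, and Mrps21, Mrpl33 and Mrpl52 of the mitochondrial set. By CPM, Rplp0, a protein of the stalk that recruits translation factors, averaged 963 CPM, Rpl4 834 CPM and Rps3 648 CPM. The lowest were Rpl32l at 3.08 CPM, Rpl39l at 0.537 CPM and Rpl3l, known as a muscle paralog of Rpl3, at 0.120 CPM. Rpl3l had 0 or 1 counts in each no tumor library and 0 to 13 in each tumor library, and was not tested. Among mitochondrial members the means ran from 47.7 CPM for Mrpl33, 45.3 CPM for Mrpl24 and 42.8 CPM for Mrps25 down to 6.90 CPM for Mrpl47, 5.03 CPM for Mrpl22 and 2.13 CPM for Mrpl23.

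With TMM scaling, edgeR's correction for a few genes taking much of a library, the mitochondrial set separated libraries with a tumor from those without across the 6 groups, and the cytosolic set did not. After centring each gene on its mean over the 18 libraries, the median mitochondrial member averaged -0.18 ± 0.05 in Tim-4low and -0.26 ± 0.04 in Tim-4high cells without a tumor, 0.14 ± 0.02 and 0.10 ± 0.03 in the same populations with isotype, and 0.11 ± 0.06 and 0.09 ± 0.03 with anti-Tim-4 (log2 scale, SD, n = 3 each). All 6 no tumor libraries lay between -0.31 and -0.13 and all 12 tumor libraries between 0.06 and 0.17, so these ranges did not overlap. The median cytosolic member averaged 0.10 ± 0.10 in Tim-4low and 0.05 ± 0.11 in Tim-4high cells without a tumor, -0.07 ± 0.13 and 0.09 ± 0.06 with isotype, and -0.08 ± 0.15 and -0.10 ± 0.08 with anti-Tim-4, with ranges that overlapped between conditions. Summed, the mitochondrial members made 1780 ± 40.2 CPM in isotype Tim-4low, against 1461 ± 58.2 CPM in no tumor Tim-4low libraries, and 1730 ± 33.7 CPM in isotype Tim-4high, against 1380 ± 38.8 CPM in no tumor Tim-4high libraries (SD, n = 3 each). By library totals alone that separation did not hold across populations, since the mitochondrial members then summed to 1585 ± 12.2 CPM in isotype Tim-4high and 1600 ± 25.2 CPM in no tumor Tim-4low libraries. Within a population the isotype mean was still the higher one, at 1793 ± 41.1 CPM in isotype Tim-4low libraries and, for Tim-4high, against 1401 ± 60.4 CPM in no tumor Tim-4high libraries (SD, n = 3 each). The ratio of the sets does not depend on the scaling. For every 1000 cytosolic counts there were 95.9 to 122 mitochondrial counts in tumor libraries, against 73.0 to 93.8 in no tumor libraries. The libraries with the highest cytosolic medians, library 1 of each no tumor group (0.20 in Tim-4low and 0.17 in Tim-4high), are those with the highest B cell marker sums, and what those cells contributed was not tested.

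**Figure D1:**
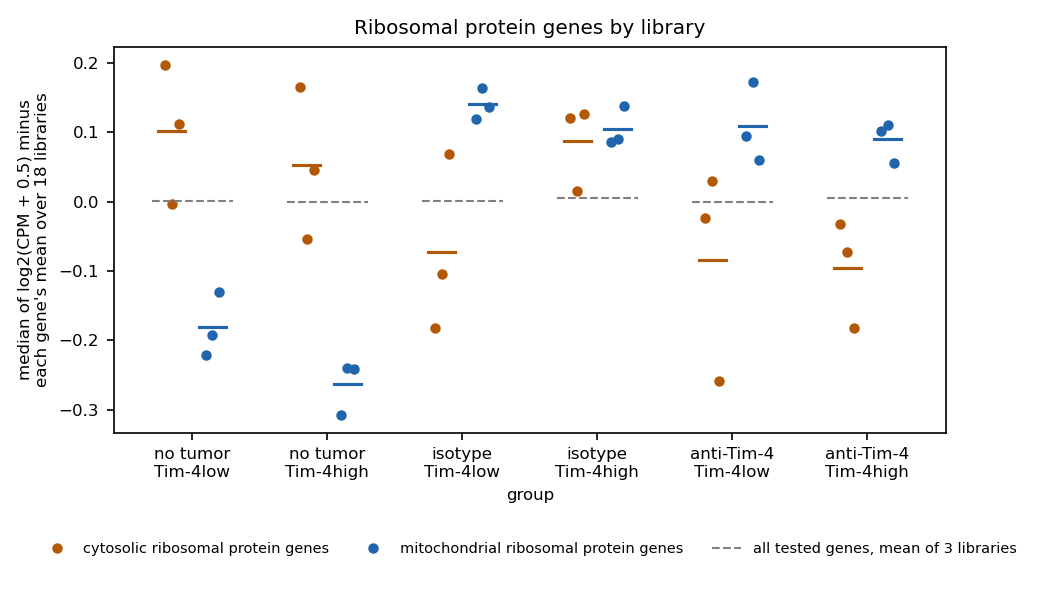
Median level of the cytosolic (orange) and mitochondrial (blue) ribosomal protein genes in each library, on a log2 scale relative to each gene's mean over 18 libraries. Points are libraries, short lines the mean of 3 libraries and dashed lines all tested genes. With TMM scaling the mitochondrial medians of all 12 tumor libraries lie above those of all 6 no tumor libraries, a separation that library totals alone do not give across populations, whereas the cytosolic medians overlap between conditions.

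The tumor comparison set isotype-treated tumor-bearing mice against mice without a tumor within each population, with edgeR's quasi-likelihood test and Benjamini-Hochberg adjustment over all 16609 tested genes, and a gene was called at an adjusted p under 0.05. In Tim-4high cells 56 of 78 mitochondrial members rose and 4 fell, against 27.3% of all tested genes called higher and 24.1% called lower. In Tim-4low cells 51 rose and 5 fell, against 25.2% of all tested genes called higher and 24.6% called lower. The median mitochondrial log2 fold change was 0.38 in Tim-4high and 0.35 in Tim-4low cells, while that of all tested genes was -0.01 and -0.02. Both subunits took part, with 38 of 49 large and 18 of 29 small members higher in Tim-4high cells (medians 0.39 and 0.35) and 36 and 15 higher in Tim-4low cells (medians 0.40 and 0.28). The comparisons in the 2 populations share no library, but same-numbered libraries of a condition moved together, so these comparisons are not independent. In both, 50 members rose, which is 89.3% of the Tim-4high and 98% of the Tim-4low risers. The same overlap over all tested genes is not given here. No member was called in opposite directions. Scaled by library totals alone, which moved the median of all genes to -0.15 in Tim-4high and -0.14 in Tim-4low cells, 40 mitochondrial members rose and 9 fell in Tim-4high cells, where 20.9% of all tested genes were called higher and 32.8% lower, and 41 rose and 6 fell in Tim-4low cells, where 19.6% and 31.8% were called.

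Mrpl51 (chr6:125191801-125196269, plus strand, build mm10 throughout for genes), a large-subunit protein, had the largest rise of the set in both populations. It stood at 47.8, 43.5 and 43.4 CPM in isotype Tim-4high libraries, against 21.0, 23.8 and 17.8 CPM in no tumor Tim-4high libraries, and at 36.2, 38.2 and 39.6 CPM in isotype Tim-4low libraries, against 21.3, 21.9 and 20.4 CPM in no tumor Tim-4low libraries. The groups were well apart, and the log2 fold changes were 1.11 ± 0.10 (SE, adjusted p = 3.65e-07) in Tim-4high and 0.84 ± 0.10 (adjusted p = 5.02e-06) in Tim-4low cells. Mrpl54, also of the large subunit, stood at 16.5, 16.5 and 18.6 CPM in isotype Tim-4high libraries, against 7.66, 11.0 and 9.09 CPM in no tumor Tim-4high libraries, a log2 fold change of 0.90 ± 0.12, and its Tim-4low change was 0.58 ± 0.12. Mrpl14 and Mrpl13, which have counterparts in the bacterial large subunit, rose by 0.79 and 0.75 in Tim-4high cells and by 0.75 each in Tim-4low cells.

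The small subunit moved the same way. Mrps16 stood at 18.6, 17.1 and 17.3 CPM in isotype Tim-4high libraries, against 11.1, 10.2 and 10.3 CPM in no tumor Tim-4high libraries, with log2 fold changes of 0.75 ± 0.08 there and 0.56 ± 0.08 in Tim-4low cells. Mrps12, the counterpart of the bacterial decoding-site protein S12, rose by 0.69 in Tim-4high and 0.56 in Tim-4low cells. The relatives of bacterial S18 rose together, Mrps18a by 0.41 and 0.55, Mrps18b by 0.67 and 0.68 and Mrps18c by 0.66 and 0.78, in Tim-4high and Tim-4low cells in that order. Mrps28 rose by 0.71 in each population. Mrps36, now known mainly as a part of the oxoglutarate dehydrogenase complex, rose by 0.67 in Tim-4high and 0.61 in Tim-4low cells. Among members with further roles, Mrpl12 of the stalk, which in human cells also binds the mitochondrial RNA polymerase, rose by 0.51 in each population, Mrpl11 of the stalk base by 0.37 in Tim-4high and 0.41 in Tim-4low cells, and Mrpl58, a peptidyl-tRNA hydrolase that frees stalled chains, by 0.29 and 0.49. Each of these changes had an adjusted p under the threshold by edgeR's quasi-likelihood test, though the Tim-4high call of Mrpl58 was lost without no tumor Tim-4high library 1 (0.24) or isotype Tim-4high library 3 (0.21).

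The low end moved less uniformly. Mrpl22 rose by 0.61 in Tim-4high and 0.57 in Tim-4low cells, and Mrpl47 gave -0.19 ± 0.13 (adjusted p = 0.232) and 0.19 ± 0.12 (adjusted p = 0.224). Of the abundant members, Mrpl24 gave 0.09 and -0.13 and Mrps25 gave 0.12 and 0.10 in Tim-4high and Tim-4low cells, none of them called. Leaving out each library in turn kept 47 of the 56 Tim-4high risers and 46 of the 51 Tim-4low risers in every fit, and the counts of risers stayed between 50 and 55 in Tim-4high and between 48 and 50 in Tim-4low cells. Without both no tumor libraries 1, 54 mitochondrial members rose and 4 fell in Tim-4high cells and 50 rose and 5 fell in Tim-4low cells. Without both isotype libraries 3, the counts were 48 and 4 in Tim-4high and 49 and 4 in Tim-4low cells.

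Markers of other cells and of cycling cells moved in the same comparison. All 20 proliferation genes rose in Tim-4high and 16 of 20 in Tim-4low cells, with summed levels of 969 to 1170 CPM in isotype Tim-4high, against 335 to 661 CPM in no tumor Tim-4high libraries, and of 825 to 1080 CPM in isotype Tim-4low, against 589 to 640 CPM in no tumor Tim-4low libraries. Of 9 monocyte markers, 6 rose and 1 fell in each population (7890 to 8190 CPM in isotype Tim-4high, against 481 to 1120 CPM in no tumor Tim-4high, and 4400 to 5650 CPM in isotype Tim-4low, against 2470 to 3250 CPM in no tumor Tim-4low libraries). All 10 mesothelial and fibroblast markers rose in both populations (9.86 to 46.7 CPM in isotype Tim-4high, against 0.434 to 0.604 CPM in no tumor Tim-4high, and 22.8 to 77.3 CPM in isotype Tim-4low, against 0.276 to 0.845 CPM in no tumor Tim-4low libraries), and only Krt19, in no tumor Tim-4high libraries, was at 0. B cell markers fell, 9 of 9 tested in each population (3.66 to 29.4 CPM in isotype Tim-4high, against 73.2 to 256 CPM in no tumor Tim-4high, and 6.65 to 35.1 CPM in isotype Tim-4low, against 77.5 to 816 CPM in no tumor Tim-4low libraries). Of 13 T and NK cell markers, 11 rose in each population (18.8 to 153 CPM in isotype Tim-4high, against 3.02 to 12.8 CPM in no tumor Tim-4high, and 26.7 to 159 CPM in isotype Tim-4low, against 3.28 to 14.7 CPM in no tumor Tim-4low libraries), and none of the B, T and NK cell or monocyte markers was at 0 in a whole group. Epithelial tumor cell marker sums were 9.05 to 15.7 CPM in isotype Tim-4high and 17 to 24.7 CPM in isotype Tim-4low libraries. Without a tumor they were 2.76 to 4.18 and 3.28 to 10.6 CPM, in the same order. Resident peritoneal macrophage marker sums were 13800 to 17800 and 2330 to 5920 CPM with isotype, against 17800 to 22700 and 5780 to 6820 CPM without a tumor, in that order. The part of all these markers in the ribosomal protein results was not tested.

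**Figure D2:**
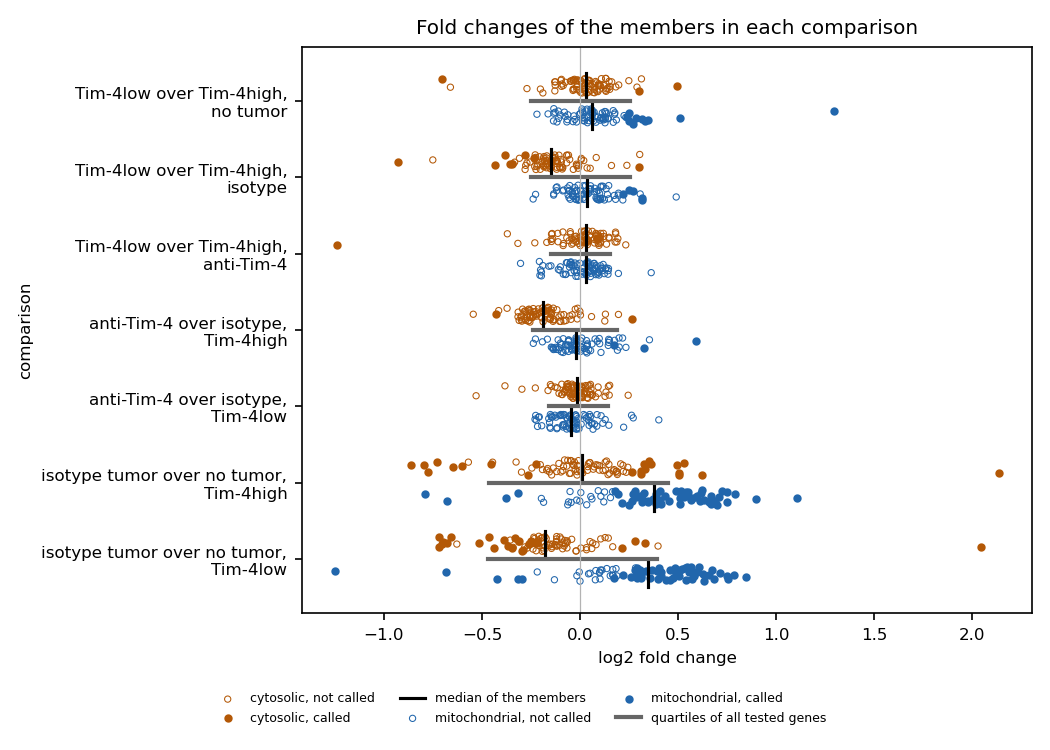
Log2 fold changes of cytosolic (orange) and mitochondrial (blue) members in 7 comparisons, with filled points for members called at an adjusted p under 0.05 and vertical lines for medians. Grey bars span the quartiles of all tested genes. In both tumor comparisons the mitochondrial median lies at 0.38 and 0.35, with the cytosolic median at 0.01 and -0.18.

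A few mitochondrial members went the other way. Mrpl49 (chr19:6053622-6057785, minus strand), of the large subunit, stood at 10.1, 12.3 and 11.5 CPM in isotype Tim-4high libraries, against 16.7, 19.9 and 17.5 CPM in no tumor Tim-4high libraries, and at 10.3, 11.9 and 11.4 CPM in isotype Tim-4low libraries, against 17.8, 17.8 and 18.4 CPM in no tumor Tim-4low libraries. The groups did not overlap and the log2 fold change was -0.68 ± 0.09 in each population (adjusted p = 1.65e-05 in Tim-4high and 1.67e-05 in Tim-4low cells). Mrpl9 fell by 0.32 in Tim-4high and 0.42 in Tim-4low cells, and Mrpl33, an abundant member with a bacterial counterpart L33, by 0.38 and 0.29. The Mrpl33 call was lost without no tumor Tim-4high library 3 in Tim-4high cells, and in Tim-4low cells without any one of the isotype Tim-4low libraries or no tumor Tim-4low library 2 or 3, at values between -0.31 and -0.20. Mrpl50 fell by 0.31 in Tim-4low cells and gave -0.20 ± 0.09 (adjusted p = 0.0644) in Tim-4high cells. Mrpl49, Mrpl33 and Mrpl9 were called lower in both populations, which is 75% of the Tim-4high and 60% of the Tim-4low fallers. Mrpl49 shares 91 exon bases with Syvn1 on the opposite strand, Mrpl13 shares 330 with Mtbp, Mrpl14 106 with Tmem63b and Mrpl18 141 with Tcp1. Larger overlaps with genes on the opposite strand belong to Mrps25 (4590 bases with Nr2c2), Mrpl24 (594 with Rrnad1) and Mrpl47 (616 with Ndufb5, whose mean count was 1141 against 202 for Mrpl47). Without a statement on strand, reads of these members cannot be told apart from those of the partner.

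Mrpl33 also differed in its transcripts. Its protein-coding transcript took 76.7% to 86.0% of the gene's estimated counts in tumor libraries, against 64.0% to 69.6% in no tumor libraries. A retained-intron transcript of the gene took 11.7% to 19.7% in tumor libraries, against 24.3% to 29.9% in no tumor libraries. The ranges of the 12 tumor and the 6 no tumor libraries did not overlap, and the shares, chosen after their values were seen, were not tested.

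Mrpl23 showed how much near-identical copies can matter. Only 6.44% of the reads that the authors' counting gave to the gene and its 1 sequence copy were on Mrpl23 itself. Counted alone it stood at 1.5, 1.74 and 1.5 CPM in isotype Tim-4high libraries, against 2.43, 3.40 and 2.38 CPM in no tumor Tim-4high libraries, a log2 fold change of -0.79 ± 0.20 (adjusted p = 0.00361). With the copy added it was 0.27, and called higher (adjusted p = 0.0038). The direction of Mrpl23 thus depended on where its reads were put, and it is uncertain.

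Cytosolic members showed no shared direction in Tim-4high cells, and in Tim-4low cells their median leaned lower. In Tim-4high cells 13 of 86 tested members rose and 9 fell, with a median log2 fold change of 0.01, where 27.3% and 24.1% of all tested genes were called. In Tim-4low cells 4 rose and 21 fell, with a median of -0.18, where 25.2% and 24.6% of all tested genes were called. The count of fallers was thus near the share of all genes. The lean lay in the median and in the signs, with 70 of 86 members negative, and the medians of single libraries overlapped between the 2 groups. Scaled by library totals alone, 5 rose and 23 fell in Tim-4high cells (median -0.14), where 20.9% of all tested genes were called higher and 32.8% lower. In Tim-4low cells 1 rose and 50 fell (median -0.30), where 19.6% were called higher and 31.8% lower. The medians of all genes under this scaling, given above, were negative too. The Tim-4high calls fell to 13 without no tumor Tim-4high library 3, and the Tim-4low calls to 14 without isotype Tim-4low library 1 and to 12 without isotype Tim-4low library 2. Without both no tumor libraries 1, 22 cytosolic members rose and 9 fell in Tim-4high cells, and 4 rose and 15 fell in Tim-4low cells. Without both isotype libraries 3, 9 rose and 7 fell in Tim-4high cells, and 2 rose and 26 fell in Tim-4low cells.

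Copies bore on the cytosolic set more than on the mitochondrial one. Sequence copies, defined by at least 90% identity over at least 50% of the member's main transcript, numbered 599 and belonged to 63 cytosolic and 8 mitochondrial members, and 14 cytosolic members held under 10% of the reads of their own family. Of those 14, 5 fell in Tim-4high cells when counted alone and 1 when copies were added, and in Tim-4low cells 6 fell alone and 4 with copies. With all copies summed into their members, 13 cytosolic members rose and 4 fell in Tim-4high cells, where 27.2% and 25.6% of 16225 genes were called, and 2 rose and 23 fell in Tim-4low cells, where 25.4% were called higher and 25.4% lower. The mitochondrial counts were 57 and 4 in Tim-4high and 51 and 5 in Tim-4low cells under the same rule. Rpl10, which joins the large subunit late and reaches its catalytic centre, stood at 30.6, 30.0 and 26.9 CPM in isotype Tim-4high libraries, against 39.4, 48.6 and 63.7 CPM in no tumor Tim-4high libraries, and fell by 0.79 alone but gave -0.15 with copies summed. Rps12, of the small subunit, fell by 0.86 alone and gave -0.23 with copies summed. Rpl10a gave -0.78 alone and 0.06 with copies, and Rpl12 gave -0.65 and 0.00. Rps27 kept its call, at -0.73 alone and -0.35 with copies, though alone it was lost without no tumor Tim-4high library 3 (-0.67) or isotype Tim-4high library 2 (-0.58).

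**Figure D3:**
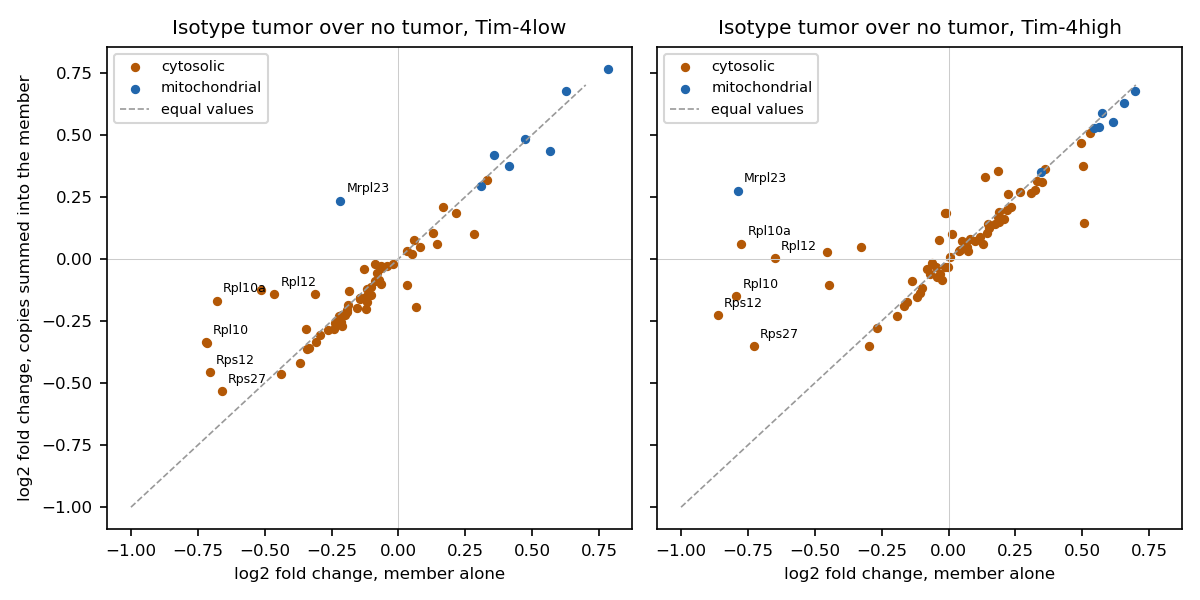
Log2 fold change of isotype tumor over no tumor for members with sequence copies, counted alone (horizontal axis) and with the counts of near-identical copies added (vertical axis), in Tim-4low and Tim-4high cells. The dashed line marks equal values. In Tim-4high cells Mrpl23 lies at -0.79 alone and 0.27 with copies, and Rpl10, Rpl10a, Rpl12 and Rps12 move toward 0.

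Rpl5 (chr5:107900502-107909005, plus strand), which carries the 5S rRNA into the large subunit and, when free, binds the p53 inhibitor Mdm2, has no sequence copy and fell in both populations. It stood at 15.3, 14.7 and 12.9 CPM in isotype Tim-4high libraries, against 20.2, 21.0 and 23.9 CPM in no tumor Tim-4high libraries, and at 12.4, 12.9 and 14.5 CPM in isotype Tim-4low libraries, against 23.2, 20.6 and 21.0 CPM in no tumor Tim-4low libraries. The groups did not overlap, and the log2 fold changes were -0.60 ± 0.11 (adjusted p = 0.000283) and -0.70 ± 0.11 (adjusted p = 8.00e-05). Its partner in the 5S particle, Rpl11, gave -0.02 ± 0.10 in Tim-4high and -0.13 ± 0.10 in Tim-4low cells and was not called. Rpl5 shares 953 exon bases with Fam69a on the opposite strand, so its counts carry the same doubt about strand.

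Paralogs that replace a core protein moved on their own. Rps27l, the paralog of Rps27 that p53 induces in human cells, stood at 55.5, 57.4 and 50.1 CPM in isotype Tim-4high libraries, against 34.0, 37.9 and 41.1 CPM in no tumor Tim-4high libraries, and rose by 0.53 ± 0.09 (adjusted p = 0.000229) there and by 0.33 ± 0.09 (adjusted p = 0.0073) in Tim-4low cells. Rps27 itself fell by 0.73 in Tim-4high and 0.66 in Tim-4low cells, so that Rps27l took 93.8% ± 1.5 of the pair's counts in isotype Tim-4high, against 86.1% ± 0.379 in no tumor Tim-4high libraries (SD, n = 3 each). Most reads of the Rps27 family lie on its copies, which this share leaves out. Rpl39l, a paralog of the exit-tunnel protein Rpl39 best known from mouse testis, was near the floor without a tumor, with 6, 5 and 6 counts per Tim-4high library and 5, 4 and 4 per Tim-4low library, and had 28, 31 and 18 counts in isotype Tim-4high and 17, 18 and 19 in isotype Tim-4low libraries. It rose by 2.14 ± 0.30 (adjusted p = 2.84e-05) in Tim-4high and 2.05 ± 0.32 (adjusted p = 7.68e-05) in Tim-4low cells, yet made only 1.39% ± 0.344 of the counts of the pair with Rpl39 in isotype Tim-4high, against 0.324% ± 0.0516 in no tumor Tim-4high libraries. Rpl39 gave 0.09 and -0.18 and was not called. Rpl22l1, the paralog of Rpl22, rose by 0.33 ± 0.11 (adjusted p = 0.0226 by edgeR's quasi-likelihood test) in Tim-4high cells and gave 0.17 ± 0.11 (adjusted p = 0.235) in Tim-4low cells. It took 21.1% ± 0.663 of the pair's counts in isotype Tim-4high, against 17.6% ± 1.09 in no tumor Tim-4high libraries. Rpl22 gave -0.11 and -0.22 and was not called. Rps4l rose by 0.62 in Tim-4high cells and Rps4x fell by 0.44 in Tim-4low cells. Rpl7l1, a paralog of Rpl7 that acts in ribosome assembly, fell by 0.23 in Tim-4high cells, and Rpl7 gave -0.01. Some of these calls in Tim-4high cells rested on single libraries. That of Rpl22l1 was lost without no tumor library 1 or 2 or isotype library 1 or 2, at values between 0.29 and 0.32, and that of Rpl7l1 without isotype library 1, at -0.19. That of Rps4l was lost without no tumor library 2 or 3 or isotype library 2 or 3, at values between 0.43 and 0.59. The Rps27 call in Tim-4low cells was lost without no tumor library 1, isotype library 1 or isotype library 2, at values between -0.60 and -0.48.

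Among the other cytosolic members, Rpl27, Rps2, Rps27l and Rpl39l rose in both populations, which is 30.8% of the Tim-4high and 100% of the Tim-4low risers. Rpl27 rose by 0.50 in Tim-4high and 0.28 in Tim-4low cells, and Rps2, at the channel where messengers enter, by 0.32 and 0.22. In Tim-4low cells the Rpl27 call was lost without no tumor library 1 or 2 or isotype library 2 or 3, at values between 0.21 and 0.30, and the Rps2 call without no tumor library 2 or 3 or isotype library 2 or 3, at values between 0.17 and 0.23. Rpl17 by 0.51, Rps26 by 0.50, Rpl19 by 0.27 and the stalk protein Rplp0 by 0.35 rose in Tim-4high cells. Of these, Rpl19 and Rplp0 were no longer called in at least 1 of the fits that left out 1 library, Rplp0 at 0.26 to 0.31 without no tumor library 2 or 3 or isotype library 3. In Tim-4low cells these gave 0.06, 0.13, -0.07 and -0.14 and were not called. With copies summed, Rpl17 gave 0.14 in Tim-4high cells and was not called, nor were Rpl27 at 0.10 and Rps2 at 0.19 in Tim-4low cells. Rpl23a, which lies near the exit of the tunnel, fell by 0.72 in Tim-4low cells and gave -0.45 (adjusted p = 0.0928) in Tim-4high cells. Its Tim-4low call was lost without isotype library 1 (-0.60) or 2 (-0.62). Over the set, leaving out each library in turn kept 6 of the 13 Tim-4high risers and 5 of the 9 fallers in every fit, and 2 of the 4 Tim-4low risers and 10 of the 21 fallers. Rpsa, Rpl13a, Rps6, Rpl3, Rpl4 and Rps3 were called in neither population, at 0.23, 0.19, 0.01, 0.01, 0.10 and 0.13 in Tim-4high cells and -0.12, -0.20, -0.19, -0.08, -0.14 and -0.08 in Tim-4low cells. Of the fallers, 8 were shared, which is 88.9% of the Tim-4high and 38.1% of the Tim-4low list, and all of these but Rpl5 have sequence copies. With copies summed, Rpl5 and Rps27 of this group were still called lower in both populations.

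**Figure D4:**
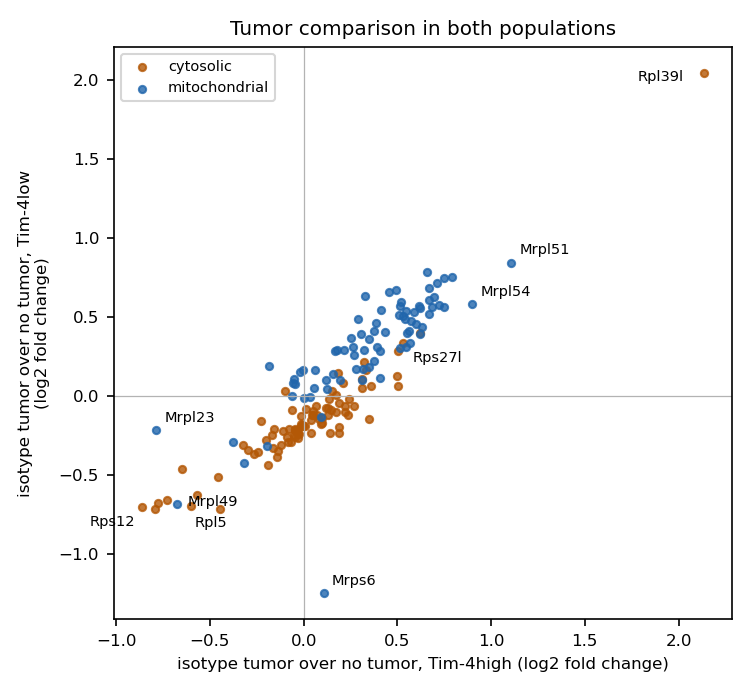
Log2 fold change of isotype tumor over no tumor in Tim-4high (horizontal axis) and Tim-4low cells (vertical axis) for every tested cytosolic (orange) and mitochondrial (blue) member. The comparisons share no library, but same-numbered libraries of a condition moved together, so they are not independent. Mrpl51 has the highest value of the mitochondrial members on both axes, at 1.11 and 0.84, Rpl39l lies beyond it, and Mrps6 lies apart at 0.11 and -1.25.

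The test of the difference between populations, the interaction of tumor and population, called no cytosolic member and 1 mitochondrial member, where 1.32% of all tested genes were called higher in Tim-4low and 2.21% lower. The cytosolic interaction nevertheless leaned one way, with negative values in 78 of 86 members and a median of -0.19 against -0.02 for all tested genes. An unadjusted p under 0.05 was reached by 9 of 86 members, a smaller share than that of all tested genes (2707 of 16609). DESeq2 called 0. With the library number as a block, which fits here because same-numbered libraries of a condition moved together, 7 cytosolic members were lower and 0 higher, among them Rplp0 at -0.50 (adjusted p = 0.0167) and Rpl13a at -0.39 (adjusted p = 0.0143), where 4.61% of all tested genes were called higher and 6.58% lower. Without no tumor Tim-4high library 1, 2 cytosolic members were called lower by edgeR's quasi-likelihood test.

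Mrps6 was the mitochondrial member called. This small-subunit protein, the counterpart of bacterial S6, is encoded at chr16:92058270-92112227 on the plus strand. It stood at 11.2, 15 and 25 CPM in no tumor Tim-4low libraries, against 6.28, 6.99 and 7.58 CPM in no tumor Tim-4high libraries, and at 7.23, 7.25 and 7.07 CPM in isotype Tim-4low, against 7.75, 7.75 and 6.93 CPM in isotype Tim-4high libraries. Only the no tumor Tim-4low libraries stood out, and they were also the most spread. The log2 fold change of Tim-4low over Tim-4high was 1.3 ± 0.20 (adjusted p = 0.00027) without a tumor and -0.06 ± 0.20 with isotype, that of isotype tumor over no tumor was -1.25 ± 0.20 in Tim-4low and 0.11 ± 0.21 in Tim-4high cells, and the interaction was -1.36 ± 0.29 (adjusted p = 0.016). It held with each library left out, at -0.96 without no tumor Tim-4low library 3. It was not called in the fit of the compared groups alone, at -1.35, or without both isotype libraries 3, at -1.40. Mrps6 shares 159 exon bases on the same strand with Slc5a3, the myo-inositol transporter gene. Slc5a3 stood at 12.5, 15.8 and 17.3 CPM in no tumor Tim-4low libraries, against 6.39, 6.44 and 4 CPM in no tumor Tim-4high libraries, and its interaction was -1.74 ± 0.29 (adjusted p = 0.00405). How far reads of one gene were counted for the other was not tested.

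**Figure D5:**
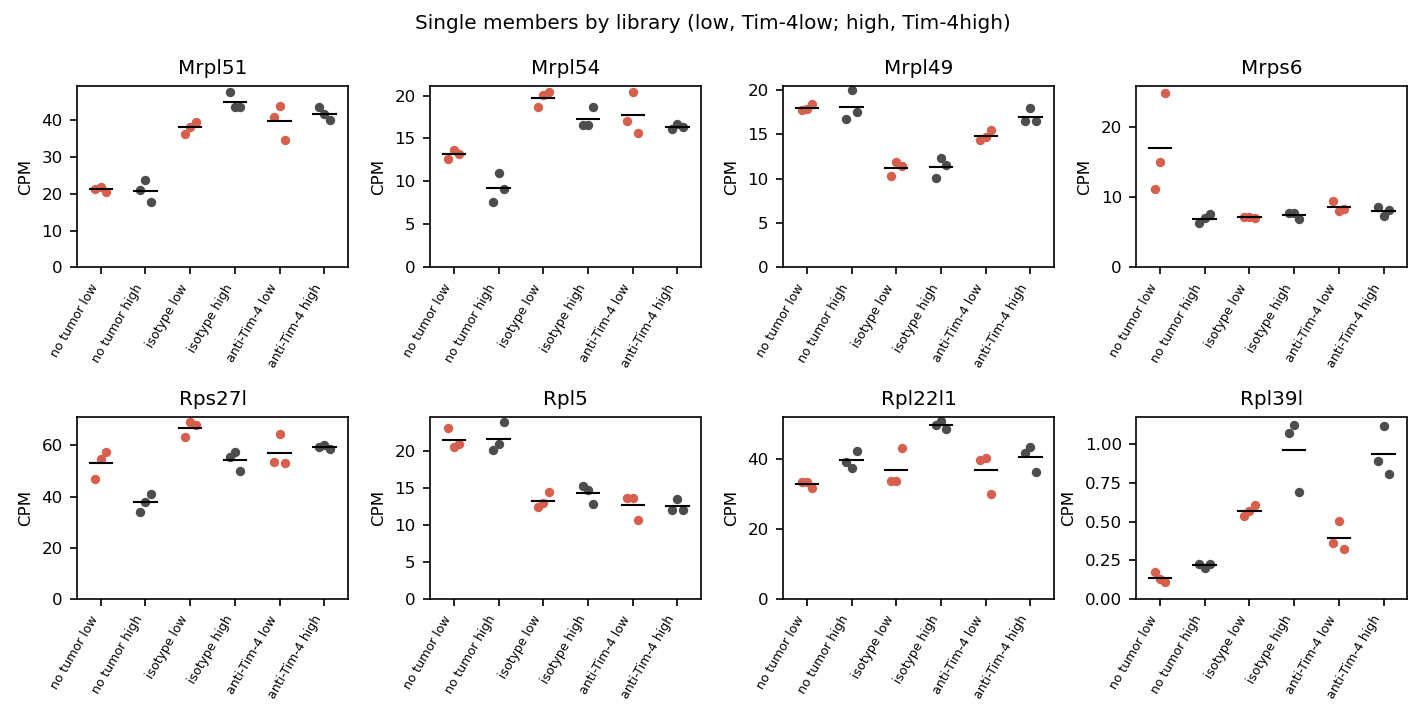
CPM of 8 members in each library, with Tim-4low in red and Tim-4high in grey, for no tumor, isotype and anti-Tim-4 groups. Points are libraries and lines their mean. Mrpl51 and Mrpl54 are higher in every tumor library than in every no tumor library, Mrpl49 is lowest with isotype, and Mrps6 is high in no tumor Tim-4low libraries alone.

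Between populations, Tim-4low was set against Tim-4high within each condition. Without a tumor, 10 of 78 mitochondrial members were higher in Tim-4low and 0 lower (median 0.06), and 2 of 86 cytosolic members were higher and 1 lower (median 0.03), where 12.8% of all tested genes were called higher and 11.8% lower (median 0.02). Mrps6, Mrpl54 at 0.51 ± 0.12, Mrpl20 at 0.35, Mrps16 at 0.33, Mrpl43 at 0.32 and Mrpl18 at 0.25 were among the higher mitochondrial members. Mrpl54 stood at 12.6, 13.6 and 13.2 CPM in Tim-4low, against 7.66, 11.0 and 9.09 CPM in Tim-4high libraries, without overlap. Rps27l at 0.49 ± 0.09 (adjusted p = 0.00116) and Rpl19 at 0.30 were the higher cytosolic members and Rps4l, a pseudogene by annotation, at -0.70, the lower. Of these 3 cytosolic calls only that of Rps27l was kept with each library left out, and of the 10 mitochondrial ones 4 were. Without both no tumor libraries 1, 2 cytosolic members were higher and 0 lower, and 7 mitochondrial members higher and 1 lower. With the block on library number, 7 cytosolic members were higher and 3 lower, and 10 mitochondrial members higher and 1 lower, where 17.8% and 16.6% of all tested genes were called. Library totals alone, which moved the median of all genes to 0.13 here and to 0.15 with isotype, gave 8 higher cytosolic and 21 higher mitochondrial members and 0 lower of either, where 21.6% of all tested genes were called higher and 8.77% lower. The mitochondrial count was 6 without no tumor Tim-4low library 3 and 2 in the fit of the compared groups alone, and the cytosolic calls were 5 without no tumor Tim-4low library 2 and 1 without no tumor Tim-4low library 3. In the authors' deposited table of this comparison, whose folds were inverted here so that Tim-4low is on top, Rpl19, Rps27l, Mrpl54 and Mrps6 had an FDR under 0.05 and were higher, where 8.35% of its genes were higher and 9.19% lower. Monocyte marker sums were 2470 to 3250 CPM in Tim-4low, against 481 to 1120 CPM in Tim-4high libraries, and plasma cell marker sums 295 to 403 CPM, against 174 to 214 CPM, and their part was not tested.

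With isotype, cytosolic members leaned lower in Tim-4low cells, at a median of -0.15 with 76 of 86 negative. The centred medians of single libraries overlapped, at -0.18, -0.10 and 0.07 in Tim-4low, against 0.12, 0.02 and 0.13 in Tim-4high libraries. Of the members, 7 were called lower and 1 higher, where 12.9% of all tested genes were called lower and 11.3% higher. The lower ones included Rps4l at -0.93 ± 0.22, Rpl22l1 at -0.43 ± 0.11, Rps19, a small-subunit protein mutated in Diamond-Blackfan anaemia, at -0.38 ± 0.11, and the stalk protein Rplp1 at -0.36. Rpl22l1 stood at 33.6, 33.7 and 43.0 CPM in isotype Tim-4low, against 49.7, 50.7 and 48.6 CPM in isotype Tim-4high libraries. Rps27l was the one called higher, at 0.30 ± 0.09 (adjusted p = 0.0279), and lost its call without Tim-4low library 2 or 3 or Tim-4high library 1 or 3, at values between 0.24 and 0.31. Of the 7 lower calls only that of Rps4l was kept with each library left out. Monocyte marker sums were 4400 to 5650 CPM in Tim-4low, against 7890 to 8190 CPM in Tim-4high libraries, and proliferation sums 825 to 1080 CPM, against 969 to 1170 CPM, and their part was not tested. With the block on library number, 24 cytosolic members were lower and 2 higher, where 17.4% and 16.7% of all tested genes were called, while library totals alone gave 1 lower and 2 higher (median -0.01), where 8.88% were called lower and 23% higher. The cytosolic calls were 14 without isotype Tim-4low library 3, 2 without isotype Tim-4low library 1, 1 without isotype Tim-4low library 2, 3 without isotype Tim-4high library 1 and 4 without isotype Tim-4high library 3, and without both isotype libraries 3 there were 4. Of the mitochondrial set 5 were higher (Mrpl33 at 0.32, Mrpl20 at 0.32, Mrpl52 at 0.27, Mrpl40 at 0.25 and Mrps9 at 0.22) and 0 lower, with 5 higher and 2 lower under the block and 28 higher by library totals alone. That count was between 0 and 2 with any one isotype library left out, at 0 without Tim-4low library 2, Tim-4low library 3 or Tim-4high library 2, 1 without Tim-4high library 1, and 2 without Tim-4low library 1 or Tim-4high library 3.

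With anti-Tim-4 fewer genes were called between the populations, 0.542% of all tested genes higher in Tim-4low and 0.849% lower. Monocyte marker sums were 3570 to 11900 CPM in Tim-4low, against 4230 to 12200 CPM in Tim-4high libraries, and overlapped. Resident peritoneal macrophage marker sums overlapped too, at 2890 to 9890 CPM in Tim-4low, against 4450 to 9310 CPM in Tim-4high libraries. With isotype the resident sums were apart, at 2330 to 5920 and 13800 to 17800 CPM, in the same order. The part of these markers was not tested. Among members, Rpl39l alone was called, at 0.361, 0.504 and 0.322 CPM in Tim-4low, against 0.893, 1.12 and 0.805 CPM in Tim-4high libraries (log2 fold change -1.24 ± 0.27, adjusted p = 0.0355 by edgeR's quasi-likelihood test). That call was lost with any one of the 6 libraries left out, with values between -1.44 and -1.09. No mitochondrial member was called, and DESeq2 called 0. An unadjusted p under 0.05 was reached by 7 of 78 mitochondrial members, against 2221 of 16609 tested genes. With the block, 3.14% and 3.97% of all tested genes were called and Rpl39l stayed the one member called.

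The antibody comparison asked what anti-Tim-4 did relative to isotype in tumor-bearing mice. In Tim-4high cells 80 of 86 cytosolic members were lower with anti-Tim-4, at a median log2 fold change of -0.19 against -0.0045 for all tested genes. Yet 1 was called lower and 1 higher, where 3.67% of all tested genes were called lower and 4.3% higher. An unadjusted p under 0.05 was reached by 32 of 86 members, against 4329 of 16609 tested genes. The one called lower, Rpsa, a small-subunit protein also known as the laminin receptor, stood at 482, 440 and 413 CPM with anti-Tim-4, against 594, 532 and 669 CPM with isotype (-0.43 ± 0.13, adjusted p = 0.0491). Rps6 at -0.30 (adjusted p = 0.081), Rplp0 at -0.25 (adjusted p = 0.188) and Rpl13a at -0.28 (adjusted p = 0.175) were not called. The number of calls depended on the fit. DESeq2 called 12 lower and 1 higher, where 7.27% of all genes with an adjusted p were called lower and 6.54% higher. In edgeR on these 6 libraries alone 30 were lower and 1 higher, where 10.5% and 9.74% of all tested genes were called. The authors' deposited table holds 35 lower and 1 higher at an FDR under 0.05, where 10.6% of its genes were lower and 9.75% higher. By contrast, 0 were called in either direction without both isotype libraries 3. The median without those libraries was -0.18, and it was -0.11 by library totals alone, which called 1 higher and 0 lower. Leaving out isotype Tim-4high library 1, isotype Tim-4high library 3, anti-Tim-4 Tim-4high library 2 or anti-Tim-4 Tim-4high library 3 gave 0 cytosolic calls in each case. Resident peritoneal macrophage marker sums were 4450 to 9310 CPM with anti-Tim-4, against 13800 to 17800 CPM with isotype. Monocyte marker sums were 4230 to 12200 CPM, against 7890 to 8190 CPM. The proliferation sums were 1340 to 1450 CPM with anti-Tim-4, against 969 to 1170 CPM with isotype. T and NK cell sums were 11.2 to 16.6 CPM, against 18.8 to 153 CPM. The part of all these markers in this comparison was not tested.

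Mitochondrial members gave a median of -0.02 in the same comparison, with 3 higher and 0 lower. Mrpl49 stood at 16.5, 18 and 16.5 CPM with anti-Tim-4, against 10.1, 12.3 and 11.5 CPM with isotype, and its log2 fold change was 0.59 ± 0.09 (adjusted p = 0.00654). The no tumor Tim-4high libraries, at 16.7, 19.9 and 17.5 CPM, overlapped with the anti-Tim-4 ones. Because both comparisons use the same isotype libraries, the fall with the tumor and the rise with the antibody are not independent. The Mrpl49 call was lost without isotype Tim-4high library 1, at 0.51. Mrpl50 rose by 0.32 ± 0.09 (adjusted p = 0.0334) and Mrpl18, whose human counterpart helps bring 5S rRNA into mitochondria, by 0.17 ± 0.05 (adjusted p = 0.0474), and Rpl7l1 of the cytosolic set by 0.26 ± 0.07 (adjusted p = 0.029). The mitochondrial count was 0 without isotype Tim-4high library 1 and 1 without isotype Tim-4high library 3, anti-Tim-4 Tim-4high library 2 or anti-Tim-4 Tim-4high library 3. It was 7 by library totals alone, and the share of all tested genes called under that scaling is not given here. In the authors' deposited table Mrpl49 and Mrps25 were higher.

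In Tim-4low cells no member of either set was called, where 0.223% of all tested genes were called higher and 0.102% lower by edgeR's quasi-likelihood test. The medians were -0.01 for cytosolic and -0.04 for mitochondrial members. An unadjusted p under 0.05 was reached by 3 of 86 and 6 of 78 members, against 2046 of 16609 tested genes. DESeq2 called 1 cytosolic and 2 mitochondrial members, all higher, and its share over all genes is not given here. Mrpl49 came closest, at 14.3, 14.6 and 15.5 CPM with anti-Tim-4, against 10.3, 11.9 and 11.4 CPM with isotype (0.40 ± 0.09, adjusted p = 0.0806). Rpl7l1 gave 0.25 ± 0.07 (adjusted p = 0.132).

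The interaction of antibody and population was positive in 73 of 86 cytosolic members, at a median of 0.15 against -0.01 for all tested genes. Yet 0 were called by edgeR's quasi-likelihood test, where 1.67% of all tested genes were called higher and 1.26% lower. An unadjusted p under 0.05 was reached by 17 of 86 members, near the share of all tested genes (3209 of 16609). DESeq2 called 2 higher, and its share over all genes is not given here. With the block on library number 14 cytosolic members were higher and 1 lower, among them Rps19 at 0.41 (adjusted p = 0.00676), Rpsa at 0.51 (adjusted p = 0.00694) and Rpl17 at 0.55 (adjusted p = 0.0078), and Rps27l at -0.36 (adjusted p = 0.0215) was the lower one, where 8.4% and 7.31% of all tested genes were called. Without the block, 4 cytosolic members were called without anti-Tim-4 Tim-4low library 3 and 1 without isotype Tim-4low library 3. Of the mitochondrial set 0 were called (5 at an unadjusted p under 0.05, DESeq2 0), against 2 lower under the block, Mrpl40 at -0.36 and Mrpl12 at -0.34.

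Other genes of translation were read from lists in the tumor comparison. Of 5 mitochondrial ribosome genes that the symbol rule misses, 4 rose in each population, Aurkaip1 by 0.62 in Tim-4high and 0.44 in Tim-4low, Chchd1 by 0.61 and 0.49, Dap3 by 0.44 and 0.52 and Gadd45gip1 by 0.33 and 0.25. Of 5 cytosolic ribosome genes outside the rule, 2 rose and 0 fell in Tim-4high cells, among them Rpl36al by 0.48, and 2 rose and 1 fell in Tim-4low cells. Of 29 cytosolic initiation factors, 18 rose and 3 fell in Tim-4high and 18 rose and 2 fell in Tim-4low cells, led by the cap-binding protein gene Eif4e at 1.17 in Tim-4high and 1.07 in Tim-4low and by Eif2s1 at 0.67 and 0.73. Elongation factors and other messengers with a pyrimidine start gave 7 higher and 2 lower of 18 in Tim-4high, and 2 higher and 4 lower in Tim-4low cells. Mitochondrial translation factors gave 7 higher and 3 lower of 15 in Tim-4high and 9 and 3 in Tim-4low cells, with the elongation factor gene Gfm1 at 0.45 and 0.60 and the initiation factor gene Mtif3 at -0.52 and -0.59.

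Not all lists of the mitochondrial translation system rose, nor did those of ribosome biogenesis in the nucleolus and of regulators, which lie outside it. Of 13 messengers of the mitochondrial genome 0 rose and 2 fell in Tim-4high cells, and 6 rose and 0 fell in Tim-4low cells, where 10 rose without both no tumor libraries 1 and 3 without both isotype libraries 3. Ribosome biogenesis genes gave 5 higher and 14 lower of 54 in Tim-4high and 15 and 6 in Tim-4low cells. Assembly factors of the mitochondrial ribosome gave 2 higher and 9 lower of 21 in Tim-4high and 3 and 7 in Tim-4low cells, with Rpusd4, a pseudouridine synthase, at -0.89 and -1.20 and Mrm1, a methyltransferase, at -1.01 and -0.85. Mitochondrial aminoacyl-tRNA synthetases gave 3 higher and 3 lower of 17 in Tim-4high and 4 and 3 in Tim-4low cells, with Hars2 at -0.83 and -0.65. Among regulators of ribosomal protein genes 5 rose and 5 fell of 22 tested in Tim-4high cells, where 27.3% of all tested genes were called higher and 24.1% lower. In Tim-4low cells 4 rose and 8 fell, where 25.2% and 24.6% were called. Of these single genes, Eif4ebp1, the mTOR target that restrains Eif4e, rose by 0.63 and 1.04. Tsc1, an inhibitor upstream of mTOR, fell by 0.69 and 0.70 and Atf4 by 1.14 and 0.99. Activity of mTOR was not tested. The share of all tested genes called in these comparisons is the one given above for the tumor.

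Set beside the start windows, the calls in Tim-4high cells ran as follows. CCGGAAG stood in 21 of 48 mitochondrial risers with a window, in 1 of 4 fallers and in 3 of 17 members that were not called. Of cytosolic members it stood in 7 of 11 risers, 0 of 9 fallers and 18 of 42 not called. The pyrimidine start, read from the annotated base alone, stood in 0 of 11 cytosolic risers, 1 of 9 fallers and 15 of 42 not called. These counts were made after the calls were known and carry no test. Mrpl51, Mrps16 and Mrps12, printed above with CCGGAAG, rose, and Mrpl33, which also holds it, fell.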

How the data were processed

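RNA of sorted peritoneal macrophages was sequenced in 18 libraries, 3 in each of 6 groups that GEO's labels give. The deposited tables hold estimated counts per gene and per transcript, per the file headers and values, and 62.8% to 66.8% of a library's gene values are whole within 0.001. STAR, DESeq2 and the build mm10 are named, without versions, in the submitters' processing notes, and whether counting used strand is not given in the sources used here. The authors' deposited tables also hold a p-value, an FDR and a signed fold change (a score with no values between -1 and 1) for 2 comparisons, and their no tumor fold runs from Tim-4high over Tim-4low.

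Estimated counts were rounded to whole numbers and tested with edgeR 4.0.16 (R 4.3.3), with TMM scaling, filterByExpr and a quasi-likelihood fit over all 6 groups with 12 residual degrees of freedom. The filter left 16609 of 23511 genes, and the others made up 0.0878% of counts or less in any library. P-values were adjusted by the Benjamini-Hochberg method over all tested genes and called under 0.05. TPM was computed from the transcript counts and lengths, and log2 levels used a pseudocount of 0.5 CPM. Sequence copies were found with blastn 2.17.0+ and promoters searched with Python 3.11.15. The scripts were tested on simulated data.

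The libraries' numbers come from the labels. After subtracting group means, same-numbered libraries of the 2 populations within a condition correlated at 0.26 to 0.564 in all 9 pairs, so the numbers pair them. Between conditions of a population the correlations were -0.393 to 0.13 in 12 pairs, so they do not. No libraries agreed within sampling noise, since chi-square per degree of freedom was 10.5 to 83.4.

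Named members were, in each comparison, up to 5 called members of each set per direction with the largest fold change at 1 CPM or more, plus fixed paralogs, members with known roles and the 3 most and 3 least abundant of each set. Up to 4 called genes came from each list. Members and lists were chosen with earlier results of these data known. Rpl10l was not analysed here, and some results that the naming rule selects are not reported here. Alternatives were another scaling (RLE size factors, TMM from genes outside both sets, library totals alone), no filter, DESeq2 1.42.0, the compared groups alone, the library number as a block and each library left out. Summing copies and leaving out both no tumor libraries 1 or both isotype libraries 3 were chosen after seeing the data.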

Additional observations from a re-analysis of the deposited data

Results flagged for a closer look

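The change of Mrps6 in the tumor comparison, which covers tumor and isotype antibody together, differed between the populations by a test of the difference itself. That call was lost in the fit of the compared groups alone and without both isotype libraries 3. The no tumor Tim-4low libraries, which alone stood out, were spread from 11.2 to 25 CPM. The interaction of tumor and population was -1.36 ± 0.29 on the log2 scale (adjusted p = 0.016, edgeR's quasi-likelihood test), with a change of isotype tumor over no tumor of -1.25 in Tim-4low and 0.11 in Tim-4high cells. The same-strand neighbour Slc5a3, which shares exon bases with it, gave -1.74, and the part of its reads in the Mrps6 counts was not tested.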

How the results depend on the processing

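Over the single members named, 1160 values of called changes stayed called with the same sign, 193 were no longer called and 3 changed sign, and of values not called 3292 stayed so and 68 became called. With copies summed, Mrpl23 gave 0.27, Rpl10a 0.0609 and Rpl12 0.0024 in Tim-4high cells of tumor-bearing mice; under the same rule the directions of the other called members held. Counts of calls that moved were these, with the cause not tested. By library totals alone, Tim-4low over Tim-4high gave 8 cytosolic and 21 mitochondrial calls without a tumor and 3 and 28 with isotype, the antibody in Tim-4high gave 1 and 7, the tumor gave 51 cytosolic calls in Tim-4low, and the antibody interaction 1 mitochondrial call. Summed levels by totals alone were 18800 (cytosolic) and 1600 CPM (mitochondrial) in no tumor Tim-4low, 16070 and 1585 CPM in isotype Tim-4high, and 1676 CPM (mitochondrial) in anti-Tim-4 Tim-4high. With no filter, Tim-4low over Tim-4high with isotype gave 5 cytosolic and 0 mitochondrial calls and with anti-Tim-4 0 cytosolic, and the antibody in Tim-4high 1 cytosolic. DESeq2 gave 13 cytosolic calls with isotype and 0 with anti-Tim-4 between populations, 13 for the antibody in Tim-4high, 1 cytosolic and 2 mitochondrial in Tim-4low, and 2 for the cytosolic antibody interaction. The compared groups alone gave 2 mitochondrial calls without a tumor and 0 cytosolic with anti-Tim-4 between populations, 31 cytosolic for the antibody in Tim-4high, 0 mitochondrial for the tumor interaction and 1 for the antibody interaction. Without both no tumor libraries 1, the tumor interaction called 2 cytosolic members. Without both isotype libraries 3, calls were 4 cytosolic and 1 mitochondrial between populations with isotype, 0 and 1 for the antibody in Tim-4high, and 0 mitochondrial for the tumor interaction.

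With the library number as a block, calls between populations were 10 cytosolic without a tumor and 26 with isotype, interactions gave 7 (tumor) and 15 (antibody) cytosolic and 2 mitochondrial (antibody) calls, and the other counts for pairs of populations stayed within 1.5 times. Between conditions, where the numbers do not pair the libraries, the block gave 5 cytosolic calls for the antibody in Tim-4high and 1 mitochondrial in Tim-4low.

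With each library left out in turn, cytosolic and mitochondrial calls between populations ranged over 1 to 5 and 6 to 9 without a tumor, 1 to 14 and 0 to 2 with isotype, and 0 to 0 with anti-Tim-4. They ranged over 0 to 3 and 0 to 2 for the antibody in Tim-4high, 0 to 0 in Tim-4low, 13 to 29 and 54 to 59 for the tumor in Tim-4high, and 12 to 29 and 52 to 55 in Tim-4low. The interactions ranged over 0 to 2 and 1 to 1 (tumor) and 0 to 4 and 0 to 0 (antibody). Depth limits Rpl39l and Rpl3l, and 3 libraries per group limit the small shifts of the cytosolic set.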

Other observations

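Messengers of the mitochondrial genome, which the mitochondrial ribosome translates, were lower in Tim-4low than in Tim-4high cells without a tumor. Of 13 measured, 12 were lower and 0 higher by edgeR's quasi-likelihood test, where 11.8% of all tested genes were called lower and 12.8% higher, at a median log2 fold change of -0.51, with mt-Nd5 at -0.82 ± 0.17 (adjusted p = 0.00195) and mt-Nd4l at -0.73 ± 0.12 (adjusted p = 0.000378). Summed, they made 9570 to 12400 CPM in Tim-4low libraries, against 12900 to 16500 CPM in the Tim-4high ones. Without both no tumor libraries 1, all 13 were called lower. With isotype 0 of 13 were called (median -0.09) and with anti-Tim-4 0 (median -0.18), and the interaction of tumor and population, at a median of 0.48, called 0.

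Ribosome biogenesis genes, which act in the nucleolus, were higher in Tim-4low than in Tim-4high cells with isotype, 27 of 54 higher and 0 lower (median 0.27), where 11.3% of all tested genes were called higher and 12.9% lower, while the messengers of cytosolic ribosomal proteins had a median of -0.15. Sdad1 at 1.04 ± 0.12 (adjusted p = 6.13e-05), Heatr1 at 0.61 and Nop56 at 0.53 were among the higher biogenesis genes. Without both isotype libraries 3 the count was 15 higher and 0 lower (median 0.31). Without a tumor 8 were higher and 0 lower, near the 12.8% of all tested genes called higher, and 4 were higher without both no tumor libraries 1. With anti-Tim-4 0 were called. The interaction of antibody and population had a median of -0.25 and called 0 higher and 2 lower, and 0 lower without both isotype libraries 3.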
